A study of Mus musculus with 6 samples.

Results

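The genes Zfp503, Dsg2, Kdm6b, Pdgfa and Nr2f2 stood nearest to the densest clusters of peaks of the transcription factor SP8 in limb ectoderm, the Dlx1 and Dlx2 cluster being left aside. They were chosen by peak position. A run was defined as 3 or more neighbouring peaks with gaps of at most 10 kb between the end of one and the start of the next, in a list of 1451 peaks, and the protein-coding gene closest to each run was taken. This gave 5 of the 21523 protein-coding genes placed on chromosomes 1 to 19 and X, and 17 of the 1451 peaks. Because the positions chose the genes, their peak counts are given as a description, with no test.

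The peaks come from chromatin immunoprecipitation with sequencing (ChIP-seq) of forelimb ectoderm at E10.5, the epithelial sheet that covers the limb bud, with material of 50 forelimb buds in each replicate. The series comprised 2 SP8-FLAG immunoprecipitations and 2 inputs from homozygous Sp8-FLAG embryos (mouse genotype "Sp8FL KI", background strain C57BL6J), and 1 H3K4me2 immunoprecipitation with 1 input from WT embryos of that strain. An anti-FLAG antibody pulled down the tagged SP8 protein with the DNA it was attached to. One list of SP8 peaks, named by the authors for replicate 1, carries all values below. It gives a chromosome, a start, an end and a number for each peak, with no height, fold or depth, and values of the second immunoprecipitation, of the inputs and of H3K4me2 were not analysed here. The peaks therefore have no replicate check, and nothing in a list of positions allows the tissue label to be checked against marker genes.

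SP8 is a zinc-finger protein of the SP and KLF family, whose members bind GC-rich boxes, and limb ectoderm needs it to form the apical ridge that drives limb outgrowth. Each of the genes has a separate role. Zfp503 (also Nolz1) encodes a zinc-finger repressor of the small NET family, and Nr2f2 (also COUP-TFII) an orphan nuclear receptor. Kdm6b (also Jmjd3) encodes an enzyme that removes the repressive methyl marks from H3K27. Pdgfa encodes a secreted growth factor that epithelia send to neighbouring mesenchyme through the receptor PDGFRA. Dsg2 encodes a desmosomal cadherin, one of the adhesion proteins that join epithelial cells.

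Promoter sequences are shown for the genes at which a peak lay on or next to an annotated transcription start, so that the bases under or beside the peak can be read. RefSeq promoter windows of GRCm38.p6 were matched for Zfp503, Pdgfa and Nr2f2, and not for Dsg2 or Kdm6b. Each sequence is the 250 bases before a start, 5′ to 3′ on the gene's strand, which is minus for these genes. Capitals mark GGGNGG on either strand (CCNCCC when read on the other), a pattern that includes the GC box GGGCGG and the CACCC-type box GGGTGG.
Zfp503, chr14:21989602-21989851, minus strand: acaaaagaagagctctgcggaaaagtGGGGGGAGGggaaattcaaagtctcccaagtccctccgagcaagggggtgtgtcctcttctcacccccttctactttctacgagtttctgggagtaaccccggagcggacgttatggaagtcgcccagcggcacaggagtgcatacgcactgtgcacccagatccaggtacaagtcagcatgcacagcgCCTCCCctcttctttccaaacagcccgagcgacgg
Pdgfa, chr5:138994945-138995194, minus strand: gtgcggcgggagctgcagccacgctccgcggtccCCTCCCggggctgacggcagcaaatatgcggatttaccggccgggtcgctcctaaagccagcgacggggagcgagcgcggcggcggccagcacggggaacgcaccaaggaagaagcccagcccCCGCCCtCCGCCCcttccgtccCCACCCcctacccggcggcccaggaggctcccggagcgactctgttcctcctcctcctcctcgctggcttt
Nr2f2, chr7:70366747-70366996, minus strand: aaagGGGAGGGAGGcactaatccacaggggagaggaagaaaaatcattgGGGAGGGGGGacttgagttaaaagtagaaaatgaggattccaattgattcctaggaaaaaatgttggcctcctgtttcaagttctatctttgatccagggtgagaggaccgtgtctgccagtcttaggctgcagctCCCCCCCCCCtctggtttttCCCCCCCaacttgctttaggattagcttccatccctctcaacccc

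Peaks covered the Zfp503 and Pdgfa windows, and none covered that of Nr2f2. At Zfp503 a peak covered the 214 bases nearest to the start. At Pdgfa a single peak covered both annotated windows whole, the one printed and one whose start lies farther into the gene. The Nr2f2 window was 416 bp from the nearest peak. Over all 32851 promoter windows in the table, each of 300 bases, 1.49% were overlapped by a peak. Since the genes were chosen for nearby peaks, the overlap of 3 of their 4 windows is read as a description only.

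Base content varied between the windows. The printed Pdgfa window was 72.4% G and C and held 28 CpG dinucleotides, and 6.03% of all windows had a higher GC share. It held 2 GC boxes (GGGCGG), a pattern found in 32.7% of all windows. The other Pdgfa window was 66.4% G and C and held 1 GC box. The Zfp503 window, at 57.2% G and C with 13 CpG, held 0 GC boxes although a peak lay on it. That peak was 1100 bp wide and had 214 of its bases in that stretch. It also covered the 250 bases before the start of the noncoding gene A330001L22Rik, on the other strand. These held 0 GC boxes and 0 matches to GGGNGG. The rest of the peak was not searched. Among the 491 windows that any peak of the list overlapped, 86.8% held a GC box and 13.2% did not, so the Zfp503 window belonged to the smaller group. Those 491 windows were also richer in G and C, with medians of 68.0% and 22 CpG. Over all windows the medians were 52.4% and 6 CpG. The Nr2f2 window, with no peak, was 50.0% G and C, held 1 CpG and also held 0 GC boxes. GGGNGG was present in all 4 windows of the chosen genes, as in 64.5% of all windows. Its matches numbered 3 at Zfp503, 4 in each Pdgfa window and 11 at Nr2f2, overlapping matches counted. CCACCC, which overlaps GGGNGG on the other strand, occurred once in each Pdgfa window and in 28.1% of all windows. TAATTA, a core recognised by homeodomain proteins, was in none of the 4 windows and in 4.84% of all windows.

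The runs took different places relative to their genes. Of the 17 run peaks, 9 had their centre inside the gene and 8 outside it, and 4 lay within 1 kb of an end of the gene. The run of Dsg2 lay wholly outside its gene and those of Kdm6b and Pdgfa wholly inside. The runs of Zfp503 and Nr2f2 reached across at least one end.

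**Figure D1:**
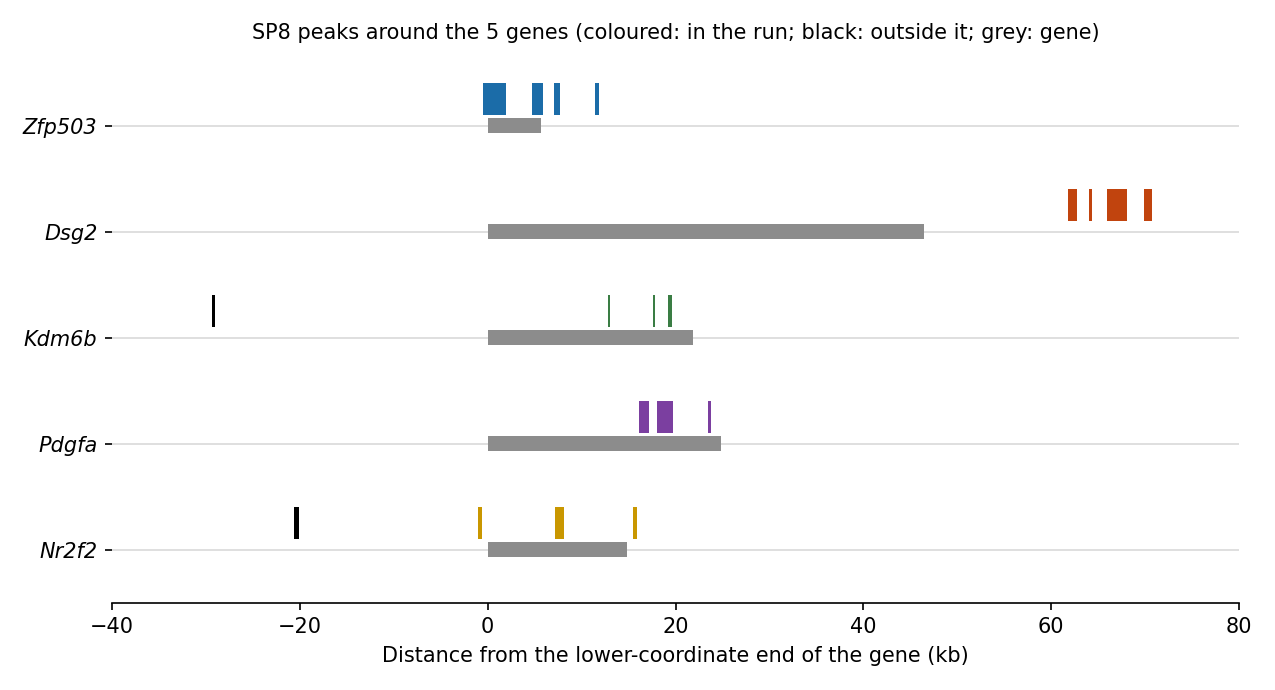
Position of SP8 peaks (bars at their deposited width) around each gene (grey bar), in kb from the gene's lower-coordinate end. Coloured bars are run peaks and black bars are peaks outside the run. The Dsg2 run stands 15.4 kb beyond its gene, whereas the Kdm6b and Pdgfa runs lie within theirs. Peaks more than 80 kb to the right of a gene's lower-coordinate end (1 each for Kdm6b, Pdgfa and Nr2f2) are not drawn.

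At Zfp503 (gene ID 218820, chromosome 14, 21983959 to 21989601, minus strand, 5.64 kb), 4 peaks spanned 12.3 kb. The first, chr14:21983468-21985889, was 2421 bp wide, had number 225, and lay over the 3′ end of the gene with its centre 4.92 kb downstream of the start. Only 4 peaks in the whole list were wider. The second, chr14:21988715-21989815, was 1100 bp wide and had its centre 0.336 kb inside the start. Its number was 1450, the last but one in the list. The third, chr14:21991054-21991686, was 632 bp wide with number 11, and lay 1.77 kb before the start. The fourth, chr14:21995316-21995756, was 440 bp wide with number 407, and lay 5.93 kb before the start. The third and the fourth had their centres inside A330001L22Rik, a noncoding gene annotated on the plus strand, whose promoter window the second peak also covered whole. The gaps between the peaks were 2826, 1239 and 3630 bp. This run thus held both the smallest and the largest list number of all 17 run peaks. No other peak lay within 200 kb of the gene, and the nearest was 4680.3 kb away.

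At Dsg2 (gene ID 13511, chromosome 18, 20558074 to 20604526, 46.5 kb), 4 peaks spanned 8.87 kb and all lay on the higher-coordinate side of the gene. Their centres were 15.9, 17.8, 20.6 and 23.9 kb from its end. The peak at chr18:20619911-20620861 was 950 bp wide with number 1347. The next, chr18:20622158-20622488, was 330 bp wide with number 1382, and was the only one of the 4 narrower than the median peak of the list (336 bp). The third, chr18:20624074-20626113, was 2039 bp wide with number 456, and 7 peaks in the list were wider. The fourth, chr18:20627999-20628777, was 778 bp wide with number 1289. Gaps of 1297, 1586 and 1886 bp separated them, the most even spacing of the runs of 4. All of these centres lay inside Gm16090, a noncoding gene whose span begins within Dsg2. The next protein-coding gene on that side was Ttr (transthyretin, a carrier of thyroid hormone and retinol-binding protein). It began 35.4 kb past the run, so that Dsg2 was the closer of the run's protein-coding neighbours. The span of Gm16090 also reached into Ttr. No other peak lay within 200 kb of Dsg2, and the next was 3350.1 kb away.

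At Kdm6b (gene ID 216850, chromosome 11, 69398508 to 69420367, 21.9 kb), 3 narrow peaks spanned 6.82 kb in the higher-coordinate part of the gene. They were at chr11:69411261-69411485 (224 bp, number 1243), chr11:69416128-69416373 (245 bp, number 789) and chr11:69417713-69418082 (369 bp, number 1189). The last 2 also lay inside the noncoding gene Gm51903. The gaps were 4643 and 1340 bp. Outside the run, a peak of 304 bp at chr11:69369143-69369447 (number 1300) lay 29.2 kb from Kdm6b and 0.204 kb from a boundary of Chd3, which encodes a chromatin remodeller. Another of 199 bp, the smallest width in the list, at chr11:69560273-69560472 (number 1275) lay 140.0 kb away and 0.777 kb from a boundary of Efnb3, which encodes an ephrin ligand. Kdm6b had the most crowded surroundings, with 14 other protein-coding genes within 200 kb, against 5 each for Zfp503, Dsg2 and Pdgfa and 1 for Nr2f2.

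At Pdgfa (gene ID 18590, chromosome 5, 138976014 to 139000792, minus strand, 24.8 kb), 3 peaks spanned 7.61 kb. The middle one, chr5:138994115-138995795, was 1680 bp wide with number 1210. Its centre was 11 bp from the outer of the starts matched in the promoter windows and 0.674 kb from the other. The annotated span of the gene reached 5.84 kb beyond that centre on the 5′ side, so the outer matched start was not its 5′ end. Of the 1451 peaks, 10 were wider. The peak at chr5:138992112-138993176 was 1064 bp wide with number 943, and lay 2.30 kb into the gene from the outer start. The third, chr5:138999468-138999723, was 255 bp wide with number 994. It lay 4.65 kb before the outer matched start and 1.2 kb inside the 5′ end of the annotated span of the gene. The gap between the 2 wide peaks was 939 bp, the smallest in any of the runs, and that to the third was 3673 bp. A peak outside the run, of 235 bp at chr5:139200334-139200569 (number 1194), was at the limit of the 200 kb window, at 199.7 kb, and lay 0.113 kb from a boundary of Sun1, which encodes a nuclear envelope protein.

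At Nr2f2 (gene ID 11819, chromosome 7, 70351946 to 70366746, minus strand, 14.8 kb), 3 peaks spanned 16.9 kb, the widest spread of the runs. One lay past the 3′ end of the gene by 0.829 kb (chr7:70350907-70351328, 421 bp, number 952). One lay inside it, 7.14 kb from the start (chr7:70359158-70360044, 886 bp, number 1007). One lay 0.862 kb before the start (chr7:70367412-70367803, 391 bp, number 1193), inside the noncoding gene B130024G19Rik. The run thus framed the gene, with gaps of 7830 and 7368 bp. A further peak on the 3′ side, chr7:70331263-70331794 (531 bp, number 640), lay 20.4 kb from the gene inside the noncoding gene Gm29683, and one of 209 bp at chr7:70505901-70506110 (number 1130) lay 139.3 kb away on the other side. The protein-coding boundary nearest to that last peak was 3.15 kb away and belonged to Gm44812, the single other protein-coding gene within 200 kb.

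In all, 22 peaks lay within 200 kb of these genes, 17 in the runs and 5 outside them. Of the 5 outside, 3 were within 1 kb of a boundary of another protein-coding gene (Chd3, Efnb3 and Sun1), and both exceptions were at Nr2f2. Peaks just beyond the window were far: the closest was 338.3 kb from Kdm6b. All the genes had 4 or 5 peaks within 200 kb, as 0.976% of all protein-coding genes had 4 or more. Nothing is read from that share, since the runs chose the genes.

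**Figure D2:**
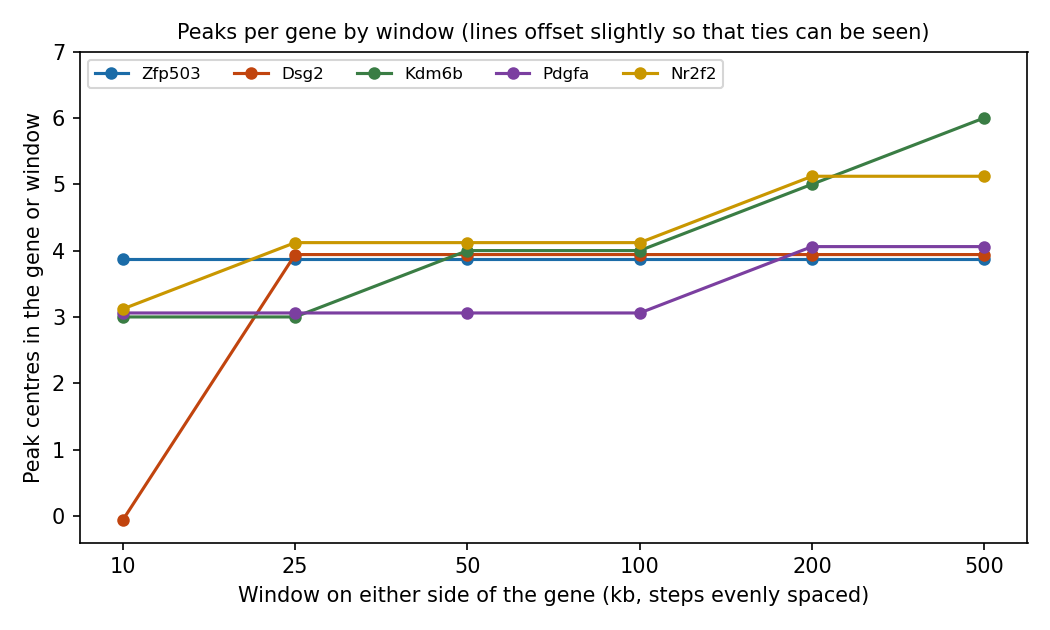
Number of peak centres in each gene or within a window on either side of it (x axis, kb, steps evenly spaced), with lines offset slightly to show ties. Zfp503 stayed at 4 from 10 to 500 kb, and Dsg2 rose from 0 at 10 kb to 4 at 25 kb. Kdm6b rose from 3 to 6.

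Within 10 kb, 11 protein-coding genes (0.0511%) had 3 or more peaks, among them Zfp503 with 4 and Kdm6b, Pdgfa and Nr2f2 with 3 each. The others were Dlx1 with 4, Dlx2, Dgkz, Dnah2, Sorbs2, Gse1 and Utrn. Neighbouring genes can count the same peaks, as Dlx1 and Dlx2 did. The 11 genes therefore do not stand for 11 separate sets of peaks. Sorbs2, Gse1 and Utrn are long genes of 320.1, 352.9 and 487.7 kb, whereas the 4 genes of the runs measured 5.64 to 24.8 kb. Dnah2 and Dgkz measured 128.3 and 43.6 kb, and Dlx1 and Dlx2 5.87 and 3.35 kb. Dsg2 had 0 peaks within 10 kb. Within 500 kb, 4 or more peaks were found at 6.26% of all protein-coding genes.

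The gap limit of 10 kb was not close to any gap in these runs. The largest gap in them was 7830 bp, at Nr2f2, and over the whole list the gaps on either side of the limit were 8681 and 10040 bp. The median gap between neighbouring peaks of the list was 746239 bp. A limit of 20 kb added the peak 19113 bp from the Nr2f2 run to it, and formed 1 further run, of 4 peaks at chromosome 10, 80131674 to 80173188, nearest to Cbarp.

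Peak width, which the rule used only through the edges of the gaps, had a higher median in 4 of the 5 runs than in the list as a whole. The 17 run peaks had a median width of 632 bp and ranged from 224 to 2421 bp. All 1451 peaks had a median of 336 bp, with quartiles of 257.5 and 465.5 bp. Peaks over 1 kb made up 5 of the 17 run peaks (29.4%) and 2.62% of the list. They were at Zfp503 (2), Pdgfa (2) and Dsg2 (1), and none was at Kdm6b or Nr2f2. By run, median widths were 866 bp at Zfp503, 864 bp at Dsg2, 1064 bp at Pdgfa, 421 bp at Nr2f2 and 245 bp at Kdm6b. The Kdm6b run therefore lay below the list's median.

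Wide peaks were also common in the 30 runs of only 2 peaks. Their 60 peaks had a median width of 467.5 bp, and 18.3% were over 1 kb, against 332 bp and 1.61% for the 1370 peaks in no run. The 4 peaks at Dlx1 and Dlx2 had a median of 356 bp, and 0 of them were over 1 kb. Peaks of 1 list are not replicates, so differences in width and in list number were not tested.

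Coverage, the summed peak widths over the span of a run, was highest in the runs that held peaks over 1 kb. It is built from the widths, so it is not a separate measure. The order of the runs by coverage differed from that by median width. Dsg2 was highest by coverage but below Pdgfa and Zfp503 by median width. Nr2f2 was lowest by coverage but above Kdm6b by median width. Peaks occupied 46.2% of the Dsg2 run, 39.4% of the Pdgfa run and 37.4% of the Zfp503 run, but 12.3% of the Kdm6b run and 10.05% of the Nr2f2 run. The Dlx1 and Dlx2 run, at 13.5%, was close to the Kdm6b run.

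**Figure D3:**
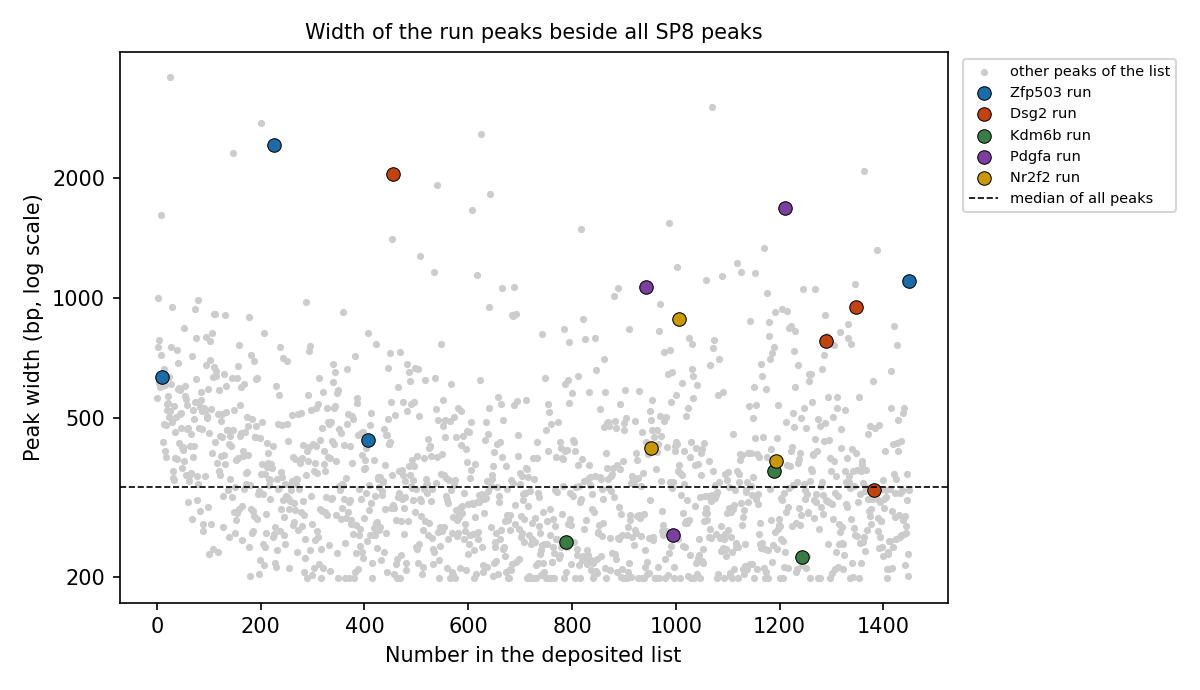
Width of every peak (y axis, bp, log scale) by its number in the list (x axis). Grey points are other peaks, coloured points the run peaks of each gene, and the dashed line the median of all peaks, 336 bp. The 5 run peaks above 1000 bp belong to Zfp503, Dsg2 and Pdgfa.

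The run peaks were placed late in the list. What the number stands for is not stated, so only its order can be described. The median number of the run peaks was 1007, against 726 for all peaks, and 4 of 17 (23.5%) were in the first 725. The runs most like them also had medians above that of the list, at 825 for the Dlx1 and Dlx2 run, with 1 of its 4 peaks in the first 725, and 833.5 for the runs of 2 peaks, with 24 of 60. The 4 run peaks in the first 725 were the 3 Zfp503 peaks other than the one at its start, and the widest Dsg2 peak. Every peak of the Kdm6b, Pdgfa and Nr2f2 runs had a number of 789 or higher. Within a run, width and number did not go together in a fixed way. The widest peak had the smallest number in 1 of the 5 runs, that of Dsg2. At Pdgfa the widest peak had the largest number, 1210. At Zfp503 number 11 belonged to a peak of 632 bp, while the 1100 bp peak at the start had number 1450, among the last 145 peaks of the list, whose median width was 322 bp and of which 5 were over 1 kb.

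Genes of the same families or pathways were described beside the chosen 5, with no test. Of the other 34 genes, 9 (26.5%) had a peak within 200 kb, and 30.9% of all protein-coding genes had one. Among the 9, Dsg3 and Dsg4 counted only peaks of the Dsg2 run, which chose Dsg2, and without them 7 of 32 (21.9%) had a peak. With the chosen genes the count was 14 of 39 (35.9%). The 5 lists name 40 genes, of which Uty, on chromosome Y, could not be placed.

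The NET family has 2 genes in mouse, and both were near several peaks. Zfp703, the paralogue of Zfp503 and likewise a transcriptional repressor, had 3 peaks within 200 kb, at 3.24 kb (chr8:26984517-26984878, 361 bp, number 1420), 16.0 kb (chr8:26961050-26961651, 601 bp, number 54) and 85.2 kb (chr8:26892030-26892229, 199 bp, number 720). Zfp703 was the gene nearest to each of the 3. Within 200 kb, 3 or more peaks were found at 3.05% of protein-coding genes.

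In the desmosome list, 5 of 15 genes had a peak within 200 kb, and 3 of these (Dsg2, Dsg3 and Dsg4) counted the same 4 peaks. Dsg3 and Dsg4, which encode desmogleins of stratified epithelium, were 79.1 and 148.6 kb from the nearest of them. Dsg1a, Dsg1b, Dsg1c and the desmocollins Dsc1, Dsc2 and Dsc3 lie farther along chromosome 18, and for all 6 the nearest peak in the list was again that of the Dsg2 run, at 208.2 kb (Dsg1b) to 618.0 kb (Dsc3). Pkp3 (plakophilin, a desmosomal plaque protein) had 3 peaks within 200 kb, the nearest at 32.7 kb and closer to Ano9. Jup (plakoglobin) had 1, at 162.3 kb, which was nearest to the keratin gene Krt14. Dsp, which encodes the plaque protein desmoplakin, had none within 200 kb, and its nearest peak was 277.6 kb away.

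Without the genes chosen for their runs, 1 of 8 placed H3K27 regulators, 0 of 5 PDGF genes and 3 of 6 NR2 receptor genes had a peak within 200 kb, beside 30.9% of all protein-coding genes. The lists are small, and differences between them were not tested. Among regulators of H3K27 methylation, 2 of 9 placed genes had a peak within 200 kb. These were Kdm6b and Rbbp4, a histone-binding subunit, whose nearest peak was 71.1 kb away. The 3 peaks within 200 kb of Rbbp4 lay closer to boundaries of Zbtb8b, Fam229a and Marcksl1. The paralogue Kdm6a, on chromosome X, was 10261.5 kb from a peak, and the methyltransferase genes Ezh1 and Ezh2 were 571.8 and 849.2 kb from one. In the PDGF list, Pdgfa was the 1 of 6 genes with a peak within 200 kb. The nearest peaks to its receptor gene Pdgfra and to Pdgfb were 505.8 and 294.0 kb away. Of the 7 NR2 receptor genes, 4 had a peak within 200 kb. Nr2c2 had 1 inside the gene (chr6:92092034-92092367, 333 bp, number 1336), 0.782 kb from its boundary. Nr2f6 had 2, the nearest at 11.1 kb, and they lay closer to boundaries of Ushbp1 and Ano8. Nr2e3 had 1, at 192.3 kb, which lay closer to a boundary of Senp8. The close paralogue Nr2f1 was 2848 kb from any peak.

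**Figure D4:**
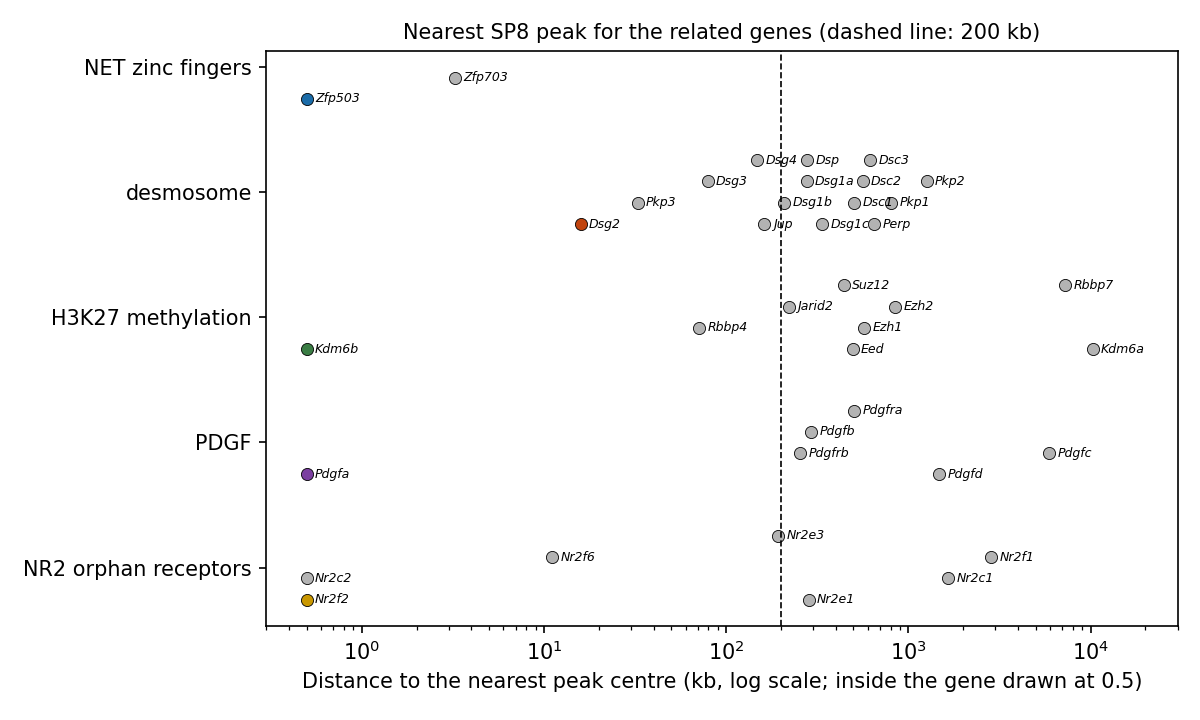
Distance from each gene of the 5 lists to the nearest peak centre (x axis, kb, log scale, with genes that hold a peak drawn at 0.5). Coloured points are the 5 genes chosen for their runs, grey points the other members, and the dashed line marks 200 kb. To the left of the line, 14 of the 39 placed genes are seen.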

How the data were processed

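The deposited list has no header. Per the submitters' processing notes, FastQC, SAMtools, TopHat2, deepTools and MACS2 were used and the builds were GRCm38 and mm10. Which tool made the list, its control and any pooling are not given in the sources used here, and the sequencing depth is unknown. The name the authors gave it carries a q of 0.1 and a fold of 3, which the columns cannot show. The deposited values are positions and a running number, not a score. Width is end minus start, and starts were taken as counting from 0 for overlaps. A peak was placed by its centre, and distances were taken to the RefSeq gene span of GRCm38.p6. Genes on chromosome Y or with a start below 3 Mb were left out. Motifs were searched in the 250 bases before each RefSeq start. The script was tested on simulated runs (Python 3.11.15, pandas 2.3.3).

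The genes, lists and comparisons were chosen with earlier results of these data known. Named items were the 5 genes, their peaks within 200 kb with nearby genes, and related genes with a peak within 200 kb. Other related genes, and those with 3 or more peaks within 10 kb, were named after their values were seen. No test was run, since 1 list holds no replicates.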

Additional observations from a re-analysis of the deposited data

How the results depend on the processing

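Across 8 results, 23 alternatives were tried, 20 of them planned and 3 added after seeing the data. Of the values, 17 stayed close to those reported (counts within 1.5 times, medians within their 95% interval over peaks) and 6 moved. For medians this was a loose limit: peaks of 1 list are not replicates, and the intervals were 369 to 1064 bp and 789 to 1243 for list number. Median width was 581.5 bp with gaps of 20 kb and 536 bp after merging peaks within 1 kb, against 632 bp. Median number was 1000.5 with gaps of 20 kb, against 1007. With only the first 725 peaks, 5 peaks lay within 200 kb of the 5 genes and 1 run of 3 or more peaks was left, that of Zfp503, which follows from the late numbers of the run peaks. Related genes with a peak rose from 14 to 24 with a window of 500 kb. All 4 promoter windows held GGGNGG, where 2 held GGGCGG. Wide run peaks numbered 8 at a limit of 750 bp and 3 after merging peaks within 1 kb. At 750 bp these were 47.1% of the 17 run peaks, against 6.96% of all peaks in the list. That merging joined both wide Pdgfa peaks and left Pdgfa without a run of 3, and a gap limit of 5 kb left Nr2f2 without one. No paired analysis was possible because the values come from 1 list, with no second group or replicate to set against it, so that leaving out a replicate could not be done either. Because depth is unknown, a gene without a peak cannot be told apart from one bound below the calling threshold.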
